A study of Sus scrofa with 21 samples.

Results

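The infarct core is the tissue in the middle of the left ventricular scar. It was compared here between pigs studied 6 weeks and 1 week after myocardial infarction (MI). The comparison was chosen by the stage and region labels of the samples, which gave 6 of the 21 arrays of the series: 3 infarct core arrays at 6 weeks (pigs 2, 3 and 5) and 3 at 1 week (pigs 7, 8 and 9). The infarcted pigs were female Landrace x Large White crossbreeds. MI was made by tying off, permanently and doubly, the first marginal branch of the left circumflex. Surgery was under anaesthesia and muscle relaxation, with an antibiotic and fentanyl for analgesia given around it in both groups. The deposited labels give the stages as 45 and 6 days. The 2 stages come from different pigs, so a difference between them is a difference between animals. Each of these pigs also gave remote myocardium (RM) from the septum (6 arrays), which serves as the background of the stage comparison. Infarct core at 4 weeks (3 arrays) and control myocardium (CM, 3 arrays from animals called healthy in the study's methods and sham-operated in the labels) are given where they place a level. The 4-week array of pig 22 stands apart. Results with 4 weeks include it unless stated otherwise, and most tests are also given without it.

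After a coronary occlusion, dead myocardium is cleared by neutrophils and macrophages, then replaced by proliferating fibroblasts and myofibroblasts that secrete and contract a collagen matrix. In the maturing scar the inflammatory cells leave or die, fibroblasts stop dividing and become matrix-maintaining cells, and collagen is crosslinked. Surviving muscle at the border and under the endocardium remains within or next to the scar.

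Values are log2 expression from robust multi-array averaging (RMA), so a difference of 1 is a doubling in signal, and values near or below 3 were taken as low. The filter was a level above 3 on 10 or more arrays. A probe set above 3 only on the 9 infarct core arrays could not pass it. The filter left 12180 probe sets. Of these, 1917 (15.7%) were called in infarct core at 6 weeks against 1 week, at an adjusted p under 0.05. Among them, 809 (6.64%) were higher at 6 weeks and 1108 (9.10%) lower. The median change was 0.83 among the higher and -0.77 among the lower, and a size of at least 2 was reached by 17 higher and 22 lower probe sets. The 3 arrays of one stage lay beyond the 3 of the other in 1821 of the called probe sets, and in 3889 (31.9%) of all those tested. Reduced to 1 probe set for each of 4976 annotated genes, 223 (4.48%) were called higher and 521 (10.5%) lower, and the median change of all genes was -0.06. The list counts below stand beside these shares over all genes. They cover only the genes tested, for example 33 of 60 listed for phagocytes, 23 of 83 for the cell cycle and 5 of 45 for lymphocytes. In bulk tissue, fewer cells of a type and less RNA per cell cannot be told apart.

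Control probe sets of the array moved with stage and stand beside every count that follows. The poly-A spikes, bacterial transcripts added to each RNA sample before labelling, averaged 4.82 to 5.78 on the infarct core arrays at 6 weeks and 3.54 to 5.15 at 1 week, where pigs 7 and 9 were low and pig 8 lay within the 6-week range. Of 34 spike probe sets 26 were called higher at 6 weeks. The beta-actin control pair, whose 3' minus 5' difference grows as RNA or its labelled copy shortens, gave 4.54 to 5.26 at 6 weeks and 3.86 to 4.08 at 1 week. The same pair for GAPDH overlapped between the stages (0.98 to 1.29 at 6 weeks and 1.16 to 1.39 at 1 week). None of the 27 hybridization control probe sets was called, but their median change was 0.60. Their mean was 8.15 to 8.51 at 6 weeks and 7.71 to 8.37 at 1 week. Pigs 7 and 9 were again low (7.71 and 7.76), and pig 8 again lay within the 6-week range. In RM the spikes averaged 4.88 to 4.92 at 6 weeks and 4.35 to 4.67 at 1 week.

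These controls changed how many probe sets passed the test. With the spike level as a covariate 55 probe sets were called in infarct core, with the actin difference as a covariate 929, and without the arrays of pigs 7 and 9, the low-spike arrays, 89. Across the 1917 calls the sign was the same in 1915, 1917 and 1917 of them. In 1821 of the 1917 calls the arrays of the 2 stages did not overlap. Leaving out pigs 7 and 9 could not change the sign in those calls, so no conclusion is drawn from the sign in that fit. In the same order, the median ratio of the fitted change to the one given here was 0.83, 1.09 and 0.93. The standard error grew by a median factor of 1.40, 1.45 and 1.46. No label names a labelling batch, and the part of labelling or RNA quality in the results was not tested.

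**Figure D1:**
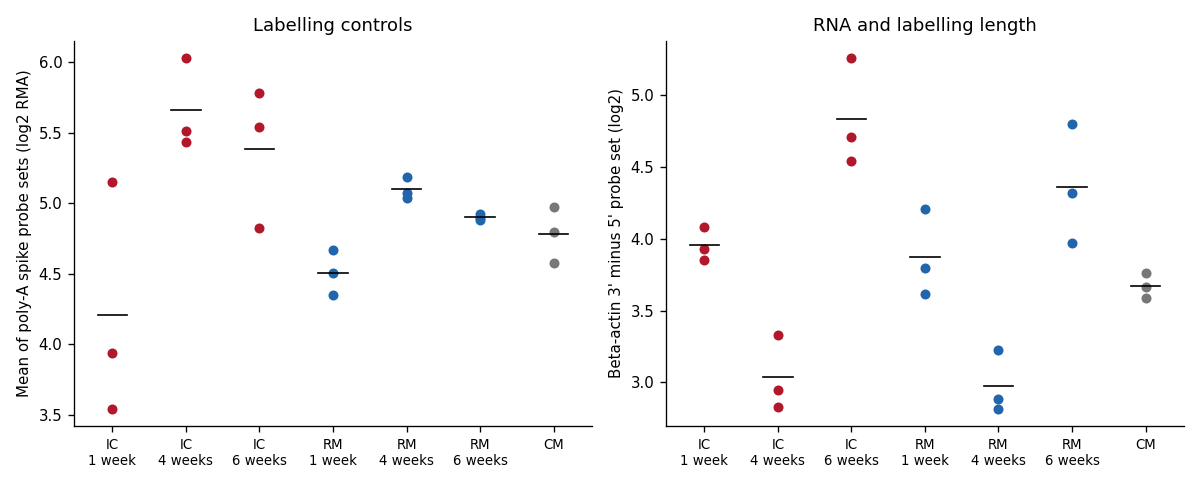
Mean log2 level of the poly-A spike probe sets (left) and the beta-actin 3' minus 5' difference (right) on each array, by region and stage, with group means as bars. In infarct core the spikes span 4.82 to 5.78 at 6 weeks and 3.54 to 5.15 at 1 week, and the actin difference 4.54 to 5.26 and 3.86 to 4.08.

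Among the gene lists with at least 5 genes tested, phagocyte genes had the highest share of falls. Of 33 macrophage and phagocyte genes 20 (60.6%) were lower at 6 weeks and 0 higher, with a median change of -1.04, against 10.5% lower over all genes. LYZ, lysozyme of granules and macrophages, is not counted among the 33, because its name comes from the authors' human match. LYZ had 5.98, 5.72 and 8.42 in pigs 2, 3 and 5 at 6 weeks, against 10.93, 11.07 and 10.70 in pigs 7, 8 and 9 at 1 week. It fell by 4.20 (SE 0.83, adjusted p = 0.00327), the largest change of any gene named, and pig 5 was well above the other 6-week pigs without reaching the 1-week range. CM averaged 3.41.

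LCP1 (L-plastin), an actin-bundling protein of leukocytes, had 4.38, 4.52 and 5.49 at 6 weeks, against 7.22, 7.47 and 7.52 at 1 week. CORO1A, a coronin of leukocyte cortical actin, had 3.85, 4.60 and 5.54 at 6 weeks, against 6.95, 6.76 and 7.08 at 1 week. TYROBP, the signalling adaptor of myeloid receptors, had 6.30, 7.12 and 7.53 at 6 weeks, against 8.25, 8.92 and 8.77 at 1 week. No array of one stage overlapped the other in these genes, pig 5 was again the highest at 6 weeks, and the falls were 2.61 (SE 0.27, adjusted p = 5.09e-05), 2.27 (SE 0.36, adjusted p = 0.00112) and 1.66 (SE 0.27, adjusted p = 0.00127).

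Others of the list followed with less regular levels. APOE, the lipoprotein of lipid-laden macrophages, fell by 1.90 (adjusted p = 0.0138), with 4.39 in pig 2 at 6 weeks and 7.41 to 7.47 at 1 week. LAPTM5, a lysosomal protein of leukocytes, fell by 2.14 and AIF1, a calcium-binding protein of activated macrophages, by 1.26. The receptors of resident-type macrophages did not pass the test: CD163, the haemoglobin scavenger receptor, differed by -0.87 (adjusted p = 0.0776), and MRC1, the mannose receptor, by 0.38 (adjusted p = 0.432), with 6.14, 6.58 and 7.56 at 6 weeks and 6.69, 6.17 and 6.29 at 1 week. The mean level of the 33 genes was 5.89, 6.18 and 6.62 at 6 weeks, 7.20, 7.37 and 7.40 at 1 week, and 4.86 to 5.04 in CM, so that it stayed above CM at both stages. Leaving out 1 infarct core array gave 13 (without pig 2) to 21 calls in this list, the spike covariate 3 and the fit without pigs 7 and 9 gave 5, with a median change of -1.15 in the last.

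Of 28 lysosomal genes 14 (50.0%) were lower and 0 higher, with a median of -0.58. CTSS, the cathepsin of antigen-presenting cells, had 8.69, 8.67 and 9.64 at 6 weeks, against 10.57, 10.63 and 10.59 at 1 week, and its other probe sets fell by 2.02 and 2.01. CTSZ fell by 1.19, GM2A, the activator of ganglioside breakdown, by 1.10 (the human match gives this probe set another name, C6orf103, but a second GM2A probe set fell by 0.99), and the asparaginyl protease LGMN by 1.03. Without pig 9 there were 7 calls, and 2 with the spike covariate or without the arrays of pigs 7 and 9.

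Genes of antigen presentation were lower in 11 of 23 (47.8%) and higher in 0, with a median of -0.83. CD74, the class II invariant chain, had 4.46, 4.67 and 5.20 at 6 weeks, against 6.34, 6.30 and 6.31 at 1 week, and fell by 1.55 (SE 0.24, adjusted p = 0.000945). IFI30, a lysosomal thiol reductase that opens antigens for class II loading, fell by 1.52, and the pig class II chains SLA-DRB1 and SLA-DQB1, whose copies resemble one another and may share probes, by 1.37 and 1.30. CM averaged 4.45 for CD74, just below the lowest 6-week array. Leaving out the array of pig 7 gave 6 calls, and the count was 0 with the spike covariate and 3 with the actin covariate.

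Chemokine and cytokine genes split by member. Of 21 tested 6 were lower and 1 higher (33.3% called). CXCR4, the receptor that draws leukocytes to CXCL12, had 4.11, 4.82 and 4.24 at 6 weeks, against 8.24, 7.60 and 7.70 at 1 week, a fall of 3.46 (SE 0.38, adjusted p = 9.67e-05) to near the CM mean of 3.96. Its ligand CXCL12, picked out after its value was seen as the only member called higher, had 7.10, 7.19 and 7.69 at 6 weeks, against 6.12, 6.49 and 6.31 at 1 week, a rise of 1.02 (adjusted p = 0.00731). Receptor and ligand changed in opposite directions, with no overlap between stages in either.

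CCL5, a T-cell chemokine, had 4.17, 4.49 and 4.55 at 6 weeks, against 7.06, 6.68 and 6.97 at 1 week, and fell by 2.50 (SE 0.34, adjusted p = 0.00057). CXCL9, an interferon-gamma-induced chemokine, had 4.03, 4.69 and 6.26 at 6 weeks, against 6.96, 8.22 and 7.63 at 1 week, and fell by 2.61. CXCL14 had 3.21, 4.86 and 4.65 at 6 weeks and 9.43, 5.98 and 7.10 at 1 week, so its fall of 3.26 (SE 0.70, adjusted p = 0.00561) rests on 1-week arrays that lie far apart. CXCR4 and CCL5 kept an adjusted p under 0.05 with the spike covariate (0.013 and 0.048), as did LCP1 (0.0105).

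Interferon-induced genes as a list differed little between 6 weeks and 1 week, although they were higher at 4 weeks (given below). Only 4 of 23 were called, all lower (17.4%), and the median was -0.24. These were IRF8, a transcription factor of the myeloid lineage (4.42, 4.39 and 5.62 at 6 weeks, against 6.70, 6.53 and 7.15 at 1 week), IFI30, GBP1 and CXCL9, while classical antiviral members of the list such as MX1 and ISG15 were not called. Of the complement genes 0 of 15 were called, with a median of 0.12.

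Markers of other leukocytes were mostly low. All 4 measured neutrophil markers (S100A8, S100A9, S100A12 and CXCL8) were below 3 on each of the 6 arrays. The 6 T-cell markers (CD3D, CD3E, CD3G, CD2, CD8A and CD4) did not pass the filter, and their mean level was 1.95 to 3.48 at 6 weeks and 3.19 to 4.06 at 1 week. CD3E, a chain of the T-cell receptor complex, had 2.42, 2.91 and 3.82 at 6 weeks and 4.60, 4.16 and 4.62 at 1 week, without overlap, and the median difference of the 6 markers was -1.24, untested because they failed the filter. CD8A, of cytotoxic T cells, had 2.33, 3.85 and 5.37 at 6 weeks and 5.95, 4.28 and 5.24 at 1 week, with overlap. JCHAIN, of plasma cells, had 4.24, 6.30 and 8.33 at 6 weeks and 8.25, 6.47 and 9.86 at 1 week, a difference of -1.91 that did not pass (adjusted p = 0.0997). In these 3 genes and in the phagocyte list, pig 5 was the highest of the 6-week pigs. GNLY, granulysin of cytotoxic lymphocytes, was lower by 1.19 (adjusted p = 0.0412), although its arrays overlapped, and with CD74 it made up the 2 lower of 5 lymphocyte genes.

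**Figure D2:**
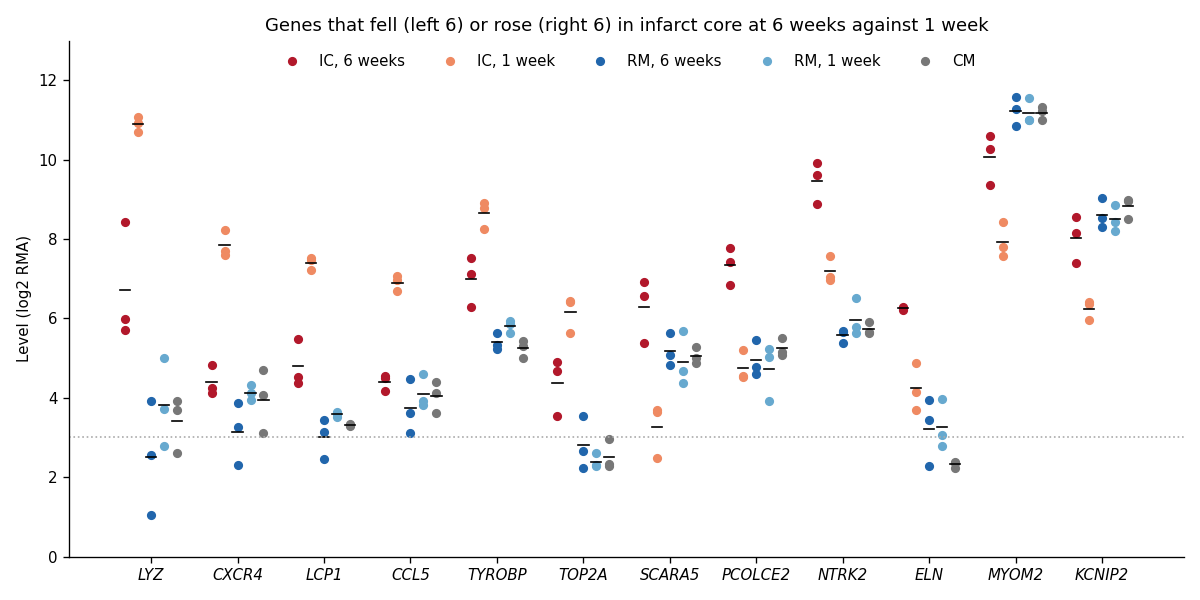
Log2 RMA level of 6 genes that fell and 6 that rose in infarct core at 6 weeks against 1 week, with 1 point per array and the group mean as a bar, for infarct core (IC), remote myocardium (RM) and control myocardium (CM). In each gene the 3 infarct core arrays at 6 weeks lie wholly below or above the 3 at 1 week, and the dotted line marks a level of 3.

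Of 23 cell cycle and DNA replication genes 8 (34.8%) were lower and 0 higher, with a median of -0.62. TOP2A, the topoisomerase of dividing cells, had 4.89, 3.54 and 4.68 at 6 weeks, against 6.45, 5.62 and 6.41 at 1 week, and fell by 1.79 (SE 0.48, adjusted p = 0.0176). LMNB1, a lamin of the nuclear envelope, fell by 2.03 (adjusted p = 0.00144), the cyclin-dependent kinase subunit CKS2 by 1.44, the histone variant H2AFZ by 1.22 and the flap endonuclease FEN1 by 1.19. Pig 8 was the lowest of the 1-week arrays in TOP2A, LMNB1, CKS2, H2AFZ and FEN1. The mean of the list was 5.47, 5.23 and 5.37 at 6 weeks and 6.25, 5.69 and 6.26 at 1 week. Without pig 8 there were 11 calls and without pig 9 there were 3, and with only pig 8 left at 1 week the median change was -0.21 and 0 members were called.

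Of 43 genes of endoplasmic reticulum folding and export 14 (32.6%) were lower and 0 higher, and 40 of 43 had a negative change, with a median of -0.44. CRELD2, a chaperone-like protein, had 4.30, 3.92 and 5.05 at 6 weeks, against 5.86, 5.37 and 6.26 at 1 week, and fell by 1.41 (SE 0.27, adjusted p = 0.00277). OSTC, of the oligosaccharyl transferase, fell by 1.01, SEC23B of the export coat by 0.91 and the translocon subunit SEC61B by 0.78. In RM the median of the list was -0.22 with 0 calls. Without pig 9 there were 5 calls, and the spike covariate left 0 and the actin covariate 10.

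The collagen lists had no called gene among those tested. Of 11 fibrillar collagens listed 4 were tested, of 29 other collagens 5 and of 15 small leucine-rich proteoglycans 6. Each list had 0 calls, at medians of 0.15, -0.28 and 0.00. The COL3A1 probe set counted here averaged 3.37 at 6 weeks, 2.83 at 1 week and 3.28 in CM, near the low range. Further COL3A1 probe sets differed by -0.13 and 0.03 and were not called. COL1A2, a chain of type I collagen, had 4.58, 5.37 and 5.89 at 6 weeks and 5.44, 5.30 and 5.27 at 1 week (adjusted p = 0.889). Its CM mean was 4.34. Its 4-week arrays stood apart at a mean of 6.28, higher than 1 week (adjusted p = 0.0107, or 0.0404 without pig 22). At 6 weeks it was lower than at 4 weeks by 1.00 (adjusted p = 0.0155, or 0.0725 without pig 22). COL6A3, of type VI collagen, had 10.24, 10.21 and 10.50 at 6 weeks and 10.36, 10.07 and 10.16 at 1 week, against a CM mean of 7.76. DCN, decorin, had 11.20, 11.42 and 11.33 at 6 weeks and 10.99, 11.21 and 10.94 at 1 week, against 9.53 in CM. In COL1A2, COL6A3 and DCN the differences at 6 weeks against 1 week were -0.06, 0.12 and 0.27, with standard errors of 0.22, 0.19 and 0.19. The stages overlapped in all 3 of these genes. COL21A1, a fibril-associated collagen outside these lists, rose by 1.51 (adjusted p = 0.00618).

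The enzymes and carriers that process collagen were called in 3 of 12 (25.0%). PCOLCE2, an enhancer of procollagen C-proteinase, had 7.41, 7.77 and 6.84 at 6 weeks, against 4.54, 4.53 and 5.21 at 1 week, a rise of 2.58 (SE 0.32, adjusted p = 0.000299), and it kept an adjusted p of 0.025 with the spike covariate. SERPINH1, the collagen chaperone HSP47, was lower by 1.09 (adjusted p = 0.0219), with overlap, and COLGALT1, a collagen galactosyltransferase, by 0.64. In RM SERPINH1 changed by -0.90 without a call.

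Elastic fibre and matricellular genes rose in part. ELN, elastin, named by the authors' match to the human gene, had 6.22, 6.25 and 6.29 at 6 weeks, against 4.14, 4.88 and 3.69 at 1 week, a rise of 2.01 (SE 0.44, adjusted p = 0.00632), with CM at 2.32. Of 21 matricellular and adhesive glycoproteins 3 were higher and 1 lower (19.0% called). TNXB, a tenascin that binds collagen, had 7.58, 8.27 and 7.69 at 6 weeks, against 4.83, 6.38 and 6.89 at 1 week, a rise of 1.81 with widely spaced 1-week arrays. MFAP5, a microfibril protein, rose by 1.06 and SPARCL1, which regulates decorin and collagen assembly, by 0.85, whereas THBS3, a thrombospondin, fell by 1.23.

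Fibroblast identity genes went both ways. Of 14 tested, 4 rose and 2 fell (42.9% called). SCARA5, a ferritin receptor found in adventitial fibroblasts, had 6.57, 6.93 and 5.37 at 6 weeks, against 2.49, 3.63 and 3.69 at 1 week, the largest rise of a named gene at 3.02 (SE 0.48, adjusted p = 0.00103). Its 6-week arrays lay above the CM mean of 5.06 and its 1-week arrays below it. GSN, the actin-severing gelsolin, had 11.62, 11.66 and 11.85 at 6 weeks, against 10.14, 9.87 and 10.48 at 1 week. It rose by 1.55 (SE 0.27, adjusted p = 0.00165), and a second probe set by 1.34.

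S100A4, the calcium-binding protein also called fibroblast-specific protein and present in macrophages, had 3.78, 3.96 and 4.28 at 6 weeks, against 5.89, 5.55 and 6.38 at 1 week, and fell by 1.94 (SE 0.27, adjusted p = 0.000639). CDH11, a cadherin of mesenchymal cells, fell by 0.78 (adjusted p = 0.0292), but passed in only 1 of the 6 fits that left out an array. FAP, the fibroblast activation protease, had 8.48, 9.08 and 8.85 at 6 weeks, against 7.91, 8.30 and 7.92 at 1 week, and rose by 0.76 (adjusted p = 0.025), a call kept in 2 of those 6 fits. TCF21 and LUM were not called, with differences of 0.07 and 0.06. Of 3 THY1 probe sets 1 was called, higher by 1.00 (adjusted p = 0.0153), and the others differed by 0.21 and 0.39, the first of them under another name (SIDT1) in the human match. The list had 3 calls without pig 7, 0 with the spike covariate and 1 without pigs 7 and 9.

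Contractile genes of smooth muscle and myofibroblasts were lower in 7 of 21 (33.3%) and higher in 0. CNN2, a calponin of non-muscle cells, had 2.87, 3.06 and 3.54 at 6 weeks, against 4.97, 4.74 and 4.76 at 1 week, a fall of 1.67 (SE 0.20, adjusted p = 0.000299), with the 6-week values near the low range. ACTN1, the non-muscle alpha-actinin of focal adhesions, had 7.30, 8.06 and 8.70 at 6 weeks, against 9.50, 9.74 and 9.19 at 1 week, a fall of 1.45. CSRP2, CNN1 and TAGLN2 fell by 1.47, 1.35 and 1.16, although CSRP2 (adjusted p = 0.0471) passed in only 1 of the 6 fits that left out an array. Several of those called are actin regulators of many cell types, leukocytes among them, and of the contractile cell markers only CNN1 passed. ACTA2, smooth muscle actin, had 10.34, 10.50 and 10.54 at 6 weeks and 10.83, 11.01 and 10.79 at 1 week (difference -0.42, adjusted p = 0.105), and TAGLN differed by -0.70 (adjusted p = 0.0923). The ACTA2 values did not overlap between stages and remained above the CM mean of 8.11 in both.

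Matrix proteases and their inhibitors had 2 lower and 1 higher of 14 tested (21.4% called). PLAU, the urokinase plasminogen activator, fell by 1.43 (adjusted p = 0.0069) and TIMP1, an inhibitor of metalloproteinases, by 1.23 (adjusted p = 0.0422), with 7.61, 7.46 and 7.56 at 6 weeks and 8.86, 7.96 and 9.52 at 1 week. Of 20 genes of TGF-beta, BMP and activin signalling 2 were lower and 1 higher (15% called), beside 10.5% lower and 4.48% higher over all genes. TGFB1, the main fibrogenic ligand, had 3.79, 4.12 and 3.71 at 6 weeks, against 4.88, 5.19 and 5.16 at 1 week, a fall of 1.20 (SE 0.21, adjusted p = 0.002) that kept an adjusted p of 0.048 with the spike covariate. Its receptor TGFBR1 fell by 0.69, and FST, follistatin, which binds activin, rose by 1.44. In the Wnt list 1 of 9 genes (11.1%) was called, the frizzled receptor FZD4. It had 8.29, 8.51 and 8.21 at 6 weeks, against 6.82, 7.63 and 7.23 at 1 week.

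Among the remaining large rises, names came from the authors' human match unless stated. NTRK2, the receptor of brain-derived neurotrophic factor, had 8.89, 9.62 and 9.91 at 6 weeks, against 6.97, 7.04 and 7.56 at 1 week, a rise of 2.28 (SE 0.44, adjusted p = 0.00314) from 2 probe sets that moved alike. LYVE1, a hyaluronan receptor of lymphatic endothelium and of some resident macrophages, named by the platform, had 3.61, 5.53 and 3.96 at 6 weeks, against 2.32, 2.03 and 3.09 at 1 week, mostly low values. IGFBP5 and FAM107A, both platform names, rose by 1.97 and 1.98 with 1-week arrays at 2.72 to 3.05 and 2.86 to 3.82. S100B, a Schwann cell marker, rose by 1.04 (adjusted p = 0.00934), while SOX10, which defines that lineage, was below 3 on each of the 6 arrays, and S100B was the only 1 of 3 Schwann cell and nerve genes called.

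Of 24 endothelial genes 2 were higher and 2 lower (16.7% called), beside 4.48% higher and 10.5% lower over all genes. AQP1, a water channel of capillaries and erythrocytes, had 8.95, 8.79 and 8.99 at 6 weeks, against 8.43, 8.22 and 8.05 at 1 week, a rise of 0.67 (SE 0.12, adjusted p = 0.00218). ICAM2 fell by 0.84 and CAV2, a caveolar protein, by 1.00. The lineage-defining PECAM1, CDH5 and VWF were not called, with differences of 0.25, -0.06 and 0.82. Of 7 pericyte genes 0 were called.

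Genes of cardiac muscle were higher where they changed. Of 25 sarcomere genes 4 (16.0%) rose and 0 fell, with a median of 0.32, against 4.48% higher over all genes. MYOM2, a protein of the sarcomeric M-band, had 10.26, 10.60 and 9.35 at 6 weeks, against 7.56, 7.81 and 8.44 at 1 week, a rise of 2.13 (SE 0.31, adjusted p = 0.000733), and remained below the CM mean of 11.18. CKM, muscle creatine kinase, had 11.57, 11.37 and 11.18 at 6 weeks, against 10.80, 10.63 and 10.88 at 1 week, a rise of 0.60 (SE 0.12, adjusted p = 0.00309), and TNNI3, cardiac troponin I, rose by 0.51. FBXO32, the atrophy-linked ubiquitin ligase, rose by 1.72 (adjusted p = 0.00957).

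Most of the abundant contractile genes did not pass. TNNT2, MYH7, MYL2 and ACTC1 differed by -0.16, 0.19, 0.03 and -0.19, at levels above 11 in each array. The mean level of 9 cardiomyocyte markers was 11.07 to 11.46 at 6 weeks, 10.82 to 11.19 at 1 week and 11.60 to 11.71 in CM. Cardiomyocyte RNA was abundant in the arrays labelled infarct core at both stages. In the 25 sarcomere genes the mean was 10.58, 10.32 and 9.85 in pigs 2, 3 and 5 and 10.05, 9.75 and 9.81 in pigs 7, 8 and 9, so that pig 5 lay within the 1-week range.

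Ion handling and energy genes moved with this order of pigs. KCNIP2, the subunit of the transient outward potassium channel, had 8.56, 8.16 and 7.39 at 6 weeks, against 5.95, 6.42 and 6.37 at 1 week, a rise of 1.79 (SE 0.30, adjusted p = 0.00153), and CAMK2D rose by 0.69. These 2 of 18 ion and calcium genes rose and 0 fell (11.1% called). PPARGC1A, the coactivator of mitochondrial biogenesis, had 7.63, 6.16 and 5.57 at 6 weeks, against 4.54, 4.73 and 4.96 at 1 week, a rise of 1.71 (SE 0.47, adjusted p = 0.0222) toward the CM mean of 7.87. PPARD, a fatty-acid-sensing nuclear receptor, fell by 0.68 (adjusted p = 0.00125).

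Of 33 genes of fatty acid uptake and beta-oxidation 6 were higher and 1 lower (21.2% called), and 30 of 33 had a positive change, with a median of 0.37. The beta-oxidation enzymes ECH1, ACAA2 and ECI1 rose by 0.78, 0.73 and 0.59, and the transporter SLC27A1 by 0.65. ACSL4, an acyl-CoA ligase of arachidonic acid named after its value was seen, was the only one called lower (by 0.54, adjusted p = 0.0411). It passed in 2 of the 6 fits that left out an array. In the citric acid cycle 3 of 24 genes rose (12.5%), SDHB, CS and IDH3G, by 0.60, 0.45 and 0.45. CS and IDH3G each passed in only 1 of the 6 fits that left out an array. Of 54 respiratory chain genes 4 rose (7.41%), NDUFS7, COX7A1, NDUFB9 and NDUFA9, by 0.80, 0.72, 0.60 and 0.59. In the respiratory chain list 47 of 54 changes were positive, with a median of 0.20. Without the 4-week array of pig 22, which enters the shared estimate of spread, 5 citric acid cycle and 7 respiratory chain genes were called.

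The mean of the fatty acid genes was 7.71, 7.43 and 6.74 in pigs 2, 3 and 5, against 7.00, 6.69 and 6.95 at 1 week, with pig 5 again among the 1-week values. Without pig 3 there were 3 calls in the fatty acid list and 2 in the respiratory chain. Without pig 5 there were 12 calls in the fatty acid list, 7 in the sarcomere list and 6 in the citric acid cycle, where leaving out pig 7 gave 1, and with the spike covariate there were 0 in each. Glycolysis had 2 of 18 genes called, both lower (11.1%), beside 10.5% lower over all genes. LDHA, lactate dehydrogenase A, had 7.94, 7.21 and 7.77 at 6 weeks, against 9.22, 8.67 and 9.38 at 1 week. ENO1 had 7.05, 6.83 and 7.22 at 6 weeks, against 8.21, 7.97 and 8.53 at 1 week. They fell by 1.45 and 1.20, and both are isoforms also used outside muscle.

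Among hypoxia-response genes 3 rose and 2 fell of 15 (33.3% called), and 1 was called without pig 3. HIF1A, the hypoxia-inducible transcription factor, was lower by 0.70 (adjusted p = 0.0151) and HMOX1, haem oxygenase, by 1.31 with overlap, while EGLN1, the oxygen-sensing hydroxylase, MXI1 and CA12 were higher by 0.57, 0.99 and 0.73, the last under another name (TPRG1) in the human match. Of 30 proteasome genes 1 was called, PSMD12, lower by 0.66. There were 0 calls among 56 ribosomal protein genes (median -0.03), 21 immediate early genes (median -0.42), 8 natriuretic peptide and fetal genes (median 0.07) and 8 adipocyte genes (median 0.30). The tendon and cartilage (2 tested), mast cell (1) and erythroid (1) lists also had 0.

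**Figure D3:**
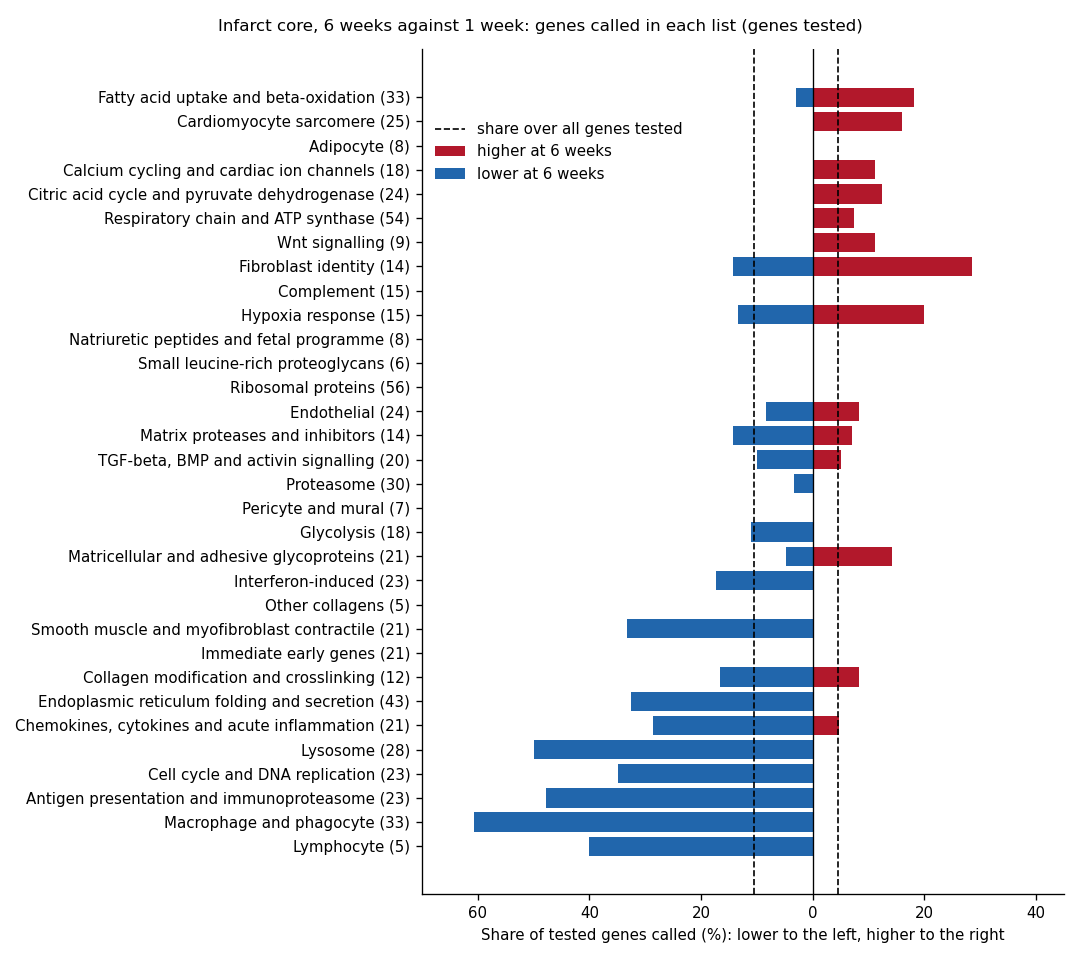
Share of the tested genes of each list that were called lower (left) or higher (right) in infarct core at 6 weeks against 1 week, with the number tested in brackets, for lists with at least 5 genes tested. Dashed lines mark the shares over all genes, 10.5% lower and 4.48% higher. The macrophage list reaches 60.6% lower and the lysosome list 50.0%.

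Some genes have further probe sets that differ from the one given. A second SDHB probe set was called in the opposite direction (-0.45, adjusted p = 0.0372). Further probe sets of CORO1A (-0.24), CS (-0.04), PPARD (0.22), FZD4 (0.51), LYVE1 (0.94), GBP1 (-0.93), AQP1 (0.59), CXCL12 (0.77) and EGLN1 (0.13 and 0.15) were not called.

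The 4-week arrays place these changes in time. One of them, from pig 22, stood apart from pigs 18 and 20: the 25 sarcomere genes averaged 9.10 in pig 22, against 10.07 and 9.90, the respiratory chain genes 8.29, against 8.83 and 8.88, and the natriuretic peptide and fetal genes 5.97, against 9.29 and 9.65. Infarct core at 4 weeks against 1 week had 1452 called probe sets (11.9%), 679 (5.57%) higher and 773 (6.35%) lower, and at 6 weeks against 4 weeks 473 (3.88%), 254 (2.09%) higher and 219 (1.80%) lower. Without pig 22 these counts were 1047 and 207, and the count at 6 weeks against 1 week was 2130. The comparisons share arrays with the one at 6 weeks against 1 week. Of the 809 probe sets higher at 6 weeks against 1 week, 304 were also called higher from 1 to 4 weeks only, 85 from 4 to 6 weeks only, 1 in both and 419 in neither. Of the 1108 lower, the numbers were 444, 85, 2 and 577. These splits include pig 22.

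Proliferation genes had changed by 4 weeks, with 12 of 23 lower then against 1 week (10 without pig 22) and 0 called between 4 and 6 weeks with or without that array. TOP2A averaged 6.16 at 1 week, 4.21 at 4 weeks and 4.37 at 6 weeks (first interval, adjusted p = 0.014). LCP1 averaged 7.41, 5.37 and 4.80 and CXCR4 7.85, 5.07 and 4.39, with the first interval called in both (adjusted p = 0.00033 and 0.00038) and the second not. SCARA5 and PCOLCE2, which rose, also moved early: SCARA5 averaged 3.27, 6.99 and 6.29, and PCOLCE2 4.76, 8.11 and 7.34, both called in the first interval (adjusted p = 0.000277 and 3.49e-05). Without pig 22 the first interval was also called in TOP2A, LCP1, CXCR4, SCARA5 and PCOLCE2 (adjusted p = 0.0211, 0.000582, 0.00154, 0.00144 and 0.000272).

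For S100A4 the means ran 5.94, 5.43 and 4.00, with a call in the second interval (adjusted p = 0.00787) and not in the first (adjusted p = 0.239). Without pig 22 the call in the second interval remained (adjusted p = 0.0444). LAPTM5 fell by 1.44 (adjusted p = 0.0498) in the second interval, but without pig 22 it was called in the first (adjusted p = 0.0307) and not in the second (adjusted p = 0.209). In the antigen presentation list 2 genes were lower in the first interval and 4 in the second, against 6 and 0 without pig 22, so the timing of that list rests on 1 array. Of 23 interferon-induced genes 5 were higher and 1 lower in the first interval (median 0.54), or 7 and 2 without pig 22 (median 0.79). In the second interval 2 were lower and 0 higher (median -0.93), and 0 were called without pig 22 (median -1.02).

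The 4-week levels of muscle and mitochondrial genes also depended on pig 22. In the respiratory chain list 6 genes were lower at 4 weeks against 1 week and 17 higher at 6 weeks against 4 weeks, in the citric acid cycle 6 and 10, and among sarcomere genes 4 lower and 1 higher, then 9 higher. Without pig 22 the respiratory chain list had 0 lower and then 5 higher, the citric acid cycle 1 and 5, and the sarcomere list 1 lower and 0 higher, then 4 higher. CKM averaged 10.77, 10.78 and 11.37 in stage order, with the second interval called (adjusted p = 0.00961, or 0.0295 without pig 22). PPARGC1A averaged 4.74, 4.92 and 6.45, without a call in the second interval (adjusted p = 0.0768, or 0.267 without pig 22). The actin difference, 3.86 to 4.08 at 1 week, was lowest at 4 weeks (2.83 to 3.33) and highest at 6 weeks (4.54 to 5.26).

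**Figure D4:**
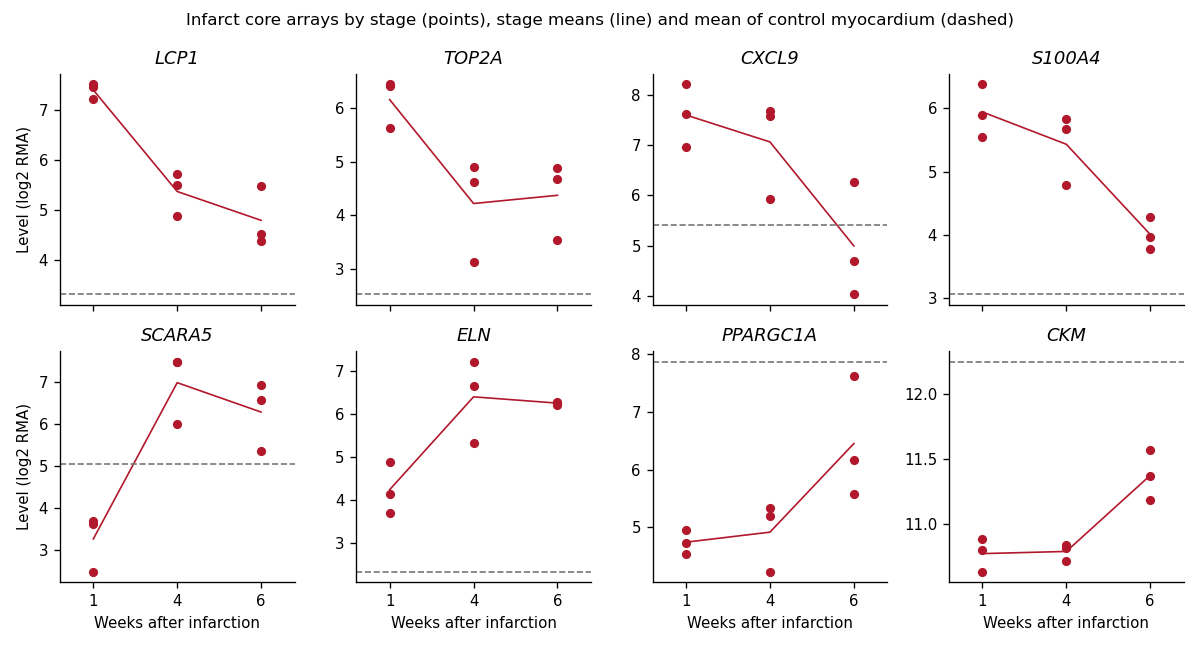
Log2 RMA level of 8 genes on the 9 infarct core arrays by stage (points), with the line joining stage means and the dashed line at the mean of control myocardium. Each panel has its own level axis. TOP2A, LCP1, SCARA5 and ELN differ mainly between 1 and 4 weeks, and S100A4 and CKM between 4 and 6 weeks.

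Levels at 6 weeks were compared with CM as a description. The 6-week mean lay nearer to CM than the 1-week mean did in 879 of the 1108 lower probe sets (79.3%) and in 496 of the 809 higher ones (61.3%), while among all those tested the share was 61.2%. The share of the lower probe sets was above that of the whole table, and that of the higher ones was close to it. Against CM, 5719 probe sets were called in infarct core at 6 weeks and 6598 at 1 week.

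Remote myocardium of the same pigs had far fewer calls by the same test without a covariate. At 6 weeks against 1 week 22 probe sets were called in RM (0.181%), 7 higher (0.0575%) and 15 lower (0.123%). At an unadjusted p under 0.05 there were 1744, against 3779 in infarct core. With the spike covariate the regions were close, at 41 calls in RM and 55 in infarct core. With the actin covariate the counts were 172 and 929. Of the 22, 11 were also called in infarct core, all with the same sign. At gene level 7 of 4976 (0.141%) were called in RM. NSUN3, a methyltransferase of mitochondrial RNA, had 4.06, 3.56 and 4.55 in RM at 6 weeks, against 5.35, 5.50 and 5.83 at 1 week (adjusted p = 0.027), and it fell by 1.42 in infarct core.

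OAZ2, an antizyme that restrains polyamine synthesis, rose by 1.09 in RM and by 1.14 in infarct core, although its other probe sets changed little in infarct core (0.06 and -0.14) and were not called. SKAP2, a leukocyte adaptor protein, had 3.26, 4.91 and 4.41 in RM at 6 weeks, against 6.21, 6.71 and 7.26 at 1 week, and fell by 2.53 (adjusted p = 0.034), with a difference of -0.78 in infarct core that was not called. A second SKAP2 probe set fell in both regions, by 1.73 in infarct core (adjusted p = 0.0345) and by 2.85 in RM (adjusted p = 0.0349). The RM count was 83 without pig 5 at 6 weeks, and 12, 3 and 0 without pigs 7, 8 and 9 at 1 week, and 0 without pig 2 or pig 3.

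A test of the difference between the change in infarct core and that in RM, with each pig as its own block, called 39 probe sets (0.320%), 26 with the change in infarct core above that in RM (0.213%) and 13 below it (0.107%). Of the 39, 34 were also called in infarct core and 1 in RM. For the other called probe sets of infarct core, a change different from RM was not shown, although at an unadjusted p under 0.05 there were 1773 differences. The count was 0 without pig 3, pig 7 or pig 9, 1 without pig 8, 5 without pig 2, 19 without pig 5, 0 with either control covariate and 20 without the replicate block.

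Among the 39 called probe sets with a named gene, SCARA5 had the largest difference of change at 2.75 (SE 0.44, adjusted p = 0.0435). Its RM arrays had 4.82, 5.63 and 5.09 at 6 weeks and 4.68, 5.68 and 4.37 at 1 week, overlapping, while the infarct core values given above did not. CXCR4 changed by -0.98 in RM and by -3.46 in infarct core, a difference of -2.48 (SE 0.38, adjusted p = 0.0433). For S100A4, RM had 3.78, 3.47 and 3.37 at 6 weeks and 3.32, 2.90 and 2.77 at 1 week, and the difference was -2.48 (adjusted p = 0.0487). TOP2A differed by -2.20 and HIST1H2AK, a histone named by the human match, by -2.15, where the change in RM was 0.41 and 0.72.

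NTRK2 (2.68), FBP1, the fructose bisphosphatase of gluconeogenesis (2.59), COL21A1 (2.53), and GSN (2.26) had a positive difference made of a rise in infarct core and a negative change in RM. COL21A1 had 5.79, 6.48 and 6.36 in infarct core at 6 weeks, against 4.37, 5.15 and 4.58 at 1 week, and in RM 3.70, 3.14 and 3.26 at 6 weeks, against 4.23, 4.84 and 4.07 at 1 week. Neither region overlapped between stages, in opposite directions, although the RM change alone was not called (adjusted p = 0.172). CXCL12 followed the same pattern, with a difference of 1.95 (adjusted p = 0.0433).

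PLIN2 and FAM46A differed through RM. PLIN2, a coat protein of lipid droplets, had 5.45, 4.59 and 3.76 in RM at 6 weeks and 2.85, 3.12 and 2.54 at 1 week. Its change of 1.77 in RM was not called (adjusted p = 0.0634), nor was that of -0.44 in infarct core. The difference of -2.21 was called (SE 0.28, adjusted p = 0.0206). FAM46A, a poly(A) polymerase family member, had 6.95, 6.93 and 7.06 in infarct core at 6 weeks and 6.92, 6.83 and 6.83 at 1 week, but 5.68, 4.96 and 5.74 in RM at 6 weeks, against 7.23, 6.76 and 7.03 at 1 week. Its difference of 1.67 (adjusted p = 0.0392) stands beside a change of 0.12 in infarct core and -1.55 in RM.

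**Figure D5:**
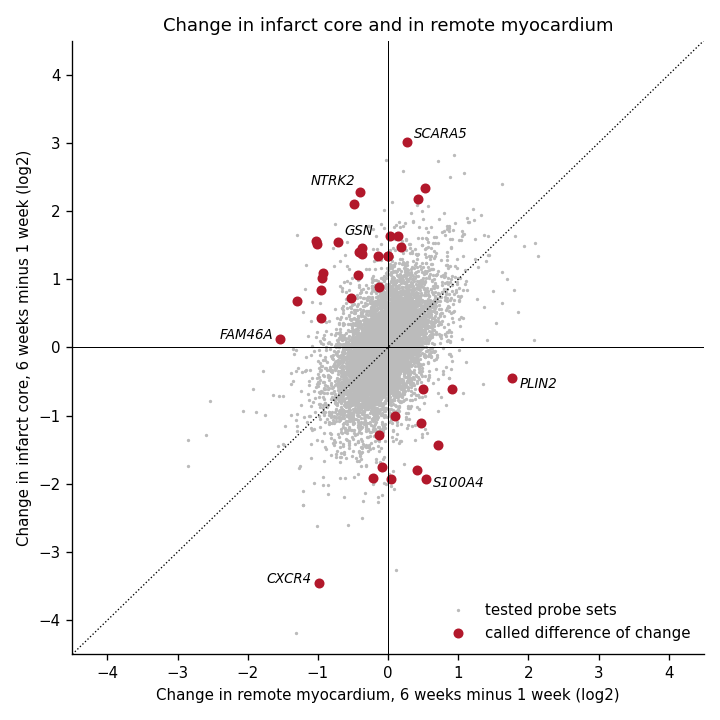
Change at 6 weeks minus 1 week (log2) in infarct core (vertical axis) against remote myocardium (horizontal axis) for the 12180 tested probe sets, with the 39 whose changes differ between the regions in red and equal change on the dotted line. SCARA5 and CXCR4 lie far from the dotted line through the infarct core change, and PLIN2 and FAM46A through that of remote myocardium.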

How the data were processed

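RNA of 21 porcine samples was measured on Affymetrix arrays for the pig. The deposited log2 values had been made by the authors with RMA (background correction, quantile normalization, probe summary), and the table of 24123 probe sets was used as it is. Array medians ran from 2.95 to 3.12, and the number of arrays limits precision.

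In limma 3.58.1 (R 4.3.3), 7 group means were estimated over all arrays (14 residual degrees of freedom), for probe sets whose level exceeded 3 on 10 or more of them. Adjustment was by Benjamini-Hochberg in each comparison, with a call at an adjusted p under 0.05. Standard errors are limma's, with n = 3 arrays per group, and an exact permutation test of 3 against 3 cannot go below 0.1. The difference of change used the 18 arrays of infarcted pigs with the pig as a fixed block (6 residual degrees of freedom), because infarct core and RM arrays with 1 pig number come from the same animal. Their residuals correlated at 0.0714 to 0.491, and the consensus was 0.207.

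Genes were named by the platform's symbol, otherwise by the human match in the authors' tables, of which only the names were used. Lists used platform symbols and the probe set with the highest mean, and some lists share members (CTSS, IFI30, CD74 and CXCL9, for example). Members, lists and tests were chosen with earlier results of these data known. Named genes are the 15 largest rises and falls without overlap, up to 5 called members of each of 37 lists (otherwise the 2 most abundant), the 10 largest differences of change, cell type markers, genes called in RM and genes of the paper's text where called; not all are printed. CXCL12 and ACSL4 were named after their values were seen. On simulated data for 12180 probe sets, 76 of 100 changes of 1 and 97 of 100 changes of 2 in infarct core were recovered, with 13 unchanged probe sets called, and for the difference of change 32 and 81, with 5. The simulated noise was independent between arrays, without a pig effect or a shift of the control probe sets. The recovery rates apply to that setting only. The alternatives were filters, centring, cyclic loess, fewer arrays in the fit, variance settings, array weights, stricter thresholds, the pig as a block or not and leaving out arrays. The covariates and the fit without pigs 7 and 9 were added after the control probe sets were seen, and the fit without pig 22 after its values were seen. In the fit without pigs 7 and 9 the lone 1-week array was assumed to vary like the other groups.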

Additional observations from a re-analysis of the deposited data

Results flagged for a closer look

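The difference between the change in infarct core and that in remote myocardium passed the test in 39 probe sets. Among the named genes it was above 0 for SCARA5 (2.75), NTRK2 (2.68), FBP1 (2.59), COL21A1 (2.53), GSN (2.26), CXCL12 (1.95) and FAM46A (1.67). It was below 0 for CXCR4 (-2.48), S100A4 (-2.48), PLIN2 (-2.21), TOP2A (-2.20) and HIST1H2AK (-2.15). These genes were flagged because the test of the difference between the regions itself was passed.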

How the results depend on the processing

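The infarct core count of 1917 was 669 at an adjusted p under 0.01, 561 with a log2 change of at least 1, 958 with only the 6 arrays compared, 974 with the 9 infarct core arrays, 3109 with array weights, 929 with the actin covariate, 55 with the spike covariate and 89 without the low-spike arrays of pigs 7 and 9. Leaving out 1 array gave 968 (pig 9) to 2055 (pig 5), with 979 without pig 3 and 1115 without pig 7. Without the 4-week array of pig 22 it was 2130, and with the pig as a random replicate block 1936.

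For RM the count of 22 was 0 at 0.01 and with only the 6 arrays, 12 with a change of at least 1, 36 without a filter, 9 with a filter above 5 in at least 3 arrays, 35 with 9 arrays, 188 with array weights, 172 with the actin and 41 with the spike covariate, and 0 to 83 with 1 array left out.

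For the difference of change the count of 39 was 0 at 0.01, 105 without a filter, 64 with the filter above 5, 21 with ribosomal centring, 846 with array weights, 0 with each covariate, 20 without the replicate block and 0 to 19 without 1 pig. The causes were not tested, other than the smaller samples or stricter thresholds of some settings. Over the planned settings the named genes stayed on their side of the threshold in 2646 comparisons with the reported value, lost the call in 299 and gained it in 12, with 0 called genes reversed. The list counts stayed within 1.5 times in 569 and moved in 134. Values below about 3 are near the lower end of the signal, so sizes there are understated.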
